A study of Arabidopsis thaliana with 12 samples.

Results

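CHLM (AT4G25080) and AT1G74470, 2 nuclear genes of chlorophyll synthesis in Arabidopsis thaliana, were followed across 12 expression arrays of total RNA. The pair was defined by name: a row of the value table was taken where the platform annotation gave exactly 1 gene and that gene was CHLM or AT1G74470. It was chosen with earlier results of these data known. Each gene had 1 row, so the pair makes up 2 of the 689 genes with a row of their own among 3439 rows. The arrays were titled as wild type (6 arrays) or as the stn7 stn8 double mutant (6 arrays). Wild type was of ecotype Columbia 0, which the titles do not name. The mutant lacks STN7 and STN8, thylakoid protein kinases that act on the antenna and on core subunits of photosystem II. The sources used here do not give the mutant alleles, the organ, the age or the light, and the source field of the labels calls all 12 samples wild type, so genotype rests on the titles. No row of its own stood for either kinase gene, so the genotype could not be checked from their transcripts. Mutant replicates 4 and 5 held the same values and were counted once, as replicate 4, which left 5 distinct mutant arrays. Since the labels do not tell separate plants from repeat arrays of 1 extract, every p-value reflects array-to-array spread alone, and that spread may be technical.

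Chlorophyll is made in the plastid from glutamate by way of 5-aminolevulinic acid and protoporphyrin IX. After magnesium is inserted, CHLM, the magnesium protoporphyrin IX methyltransferase, transfers a methyl group from S-adenosylmethionine to the porphyrin, an early step of the magnesium branch. Geranylgeranyl reductase, encoded by AT1G74470, acts on the side chain: it reduces the geranylgeranyl group to the phytyl tail that anchors chlorophyll in its binding proteins, and it also supplies phytyl diphosphate for tocopherol and phylloquinone. The comparison of mutant and wild type asks whether the transcripts of these head-group and tail enzymes differ when both kinases are missing.

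In the double mutant CHLM was higher, while AT1G74470 did not pass the test, a call that depended on the setting. CHLM rose 1.43-fold after quantile normalization (95% confidence interval 1.24 to 1.65, n = 6 wild-type and 5 mutant arrays), and on that scale all 5 mutant arrays stood above all wild-type arrays. The signal of AT1G74470 was 0.832 of the wild-type level (95% confidence interval 0.699 to 0.989), below the wild-type mean in all 5 mutant arrays but inside the wild-type range in 2 of them. Relative to the array median, by contrast, the groups overlapped for CHLM and did not overlap for AT1G74470. The signal of CHLM relative to that of AT1G74470 was higher in the mutant. A common factor applied to an array cancels in this shift, while a change that varies with brightness does not.

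As deposited, CHLM had an intensity between 0.416 and 0.523 in the 6 wild-type arrays, with a median of 0.505. In the mutant its intensity was 0.793 in replicate 1, 0.931 in replicate 2, 0.836 in replicate 3, 0.977 in replicate 4 and 0.959 in replicate 6. The lowest mutant array thus lay above the highest wild-type array, and the group means were 0.480 ± 0.0486 (SD, n = 6) and 0.899 ± 0.0806 (n = 5). These values are linear array intensities whose unit and scaling the sources used here do not state. On them the median of all tested rows was itself higher in the mutant by 0.50 (log2), and limma called 56.2% of rows higher.

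AT1G74470 had deposited intensities from 2.49 to 3.49 in wild type, with a median of 3.01. In the mutant its intensity was 2.59 in replicate 1, 2.48 in replicate 2, 2.81 in replicate 3, 2.36 in replicate 4 and 2.08 in replicate 6. The groups overlapped: mutant replicates 2, 4 and 6 were below every wild-type array, while replicates 1 and 3 fell within the wild-type range. The means were 2.98 ± 0.370 (SD, n = 6) and 2.46 ± 0.271 (n = 5).

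**Figure D1:**
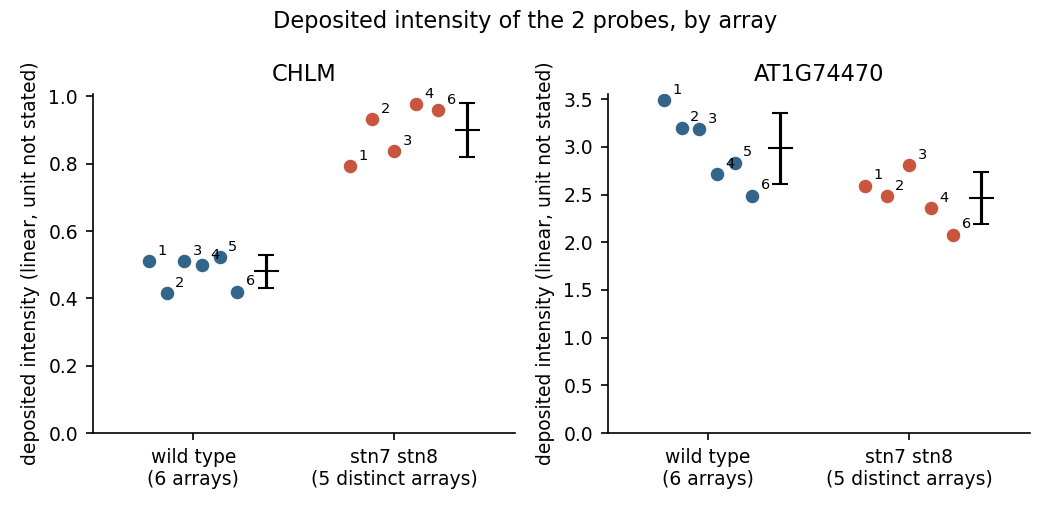
Deposited intensity (vertical axis, linear, starting at 0) of CHLM (left) and AT1G74470 (right) in each wild-type and mutant array. Points are arrays with their replicate number, and bars are mean ± SD. The 5 mutant arrays of CHLM, from 0.793 to 0.977, all lie above the wild-type arrays, whereas the groups of AT1G74470 overlap. On these values the median of all tested rows is also higher in the mutant, by 0.50 (log2).

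The arrays of the 2 groups were not on the same scale, which touches both genes. Column totals were alike, at 3608 to 3682 in wild type and 3586 to 3660 in the mutant, but the median log2 intensity ran from -1.65 to -1.36 in wild type and from -1.003 to -0.94 in the mutant. The brightest 1% of rows held 36.03% to 39.4% of the signal in wild type and 28.0% to 29.5% in the mutant. Changes are therefore given on quantile-normalized log2 intensities, relative to the distribution of all rows, and the deposited values are set beside them. Wild-type replicates 5 and 6 resembled the rest of their group less, with correlations across rows of 0.920 to 0.938 against 0.965 to 0.980 among replicates 1 to 4. In the mutant, pairs that held replicate 1 or 2 correlated at 0.916 to 0.938 and the other pairs at 0.947 to 0.97. Results are therefore also given without wild-type replicates 5 and 6, and for the 2 genes without mutant replicates 1 and 2.

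On the normalized log2 scale, wild-type CHLM ranged from -1.02 to -0.64 with a median of -0.89. Mutant CHLM was at -0.52, -0.28, -0.44, -0.20 and -0.26 in replicates 1, 2, 3, 4 and 6, again with no overlap. The log2 change was 0.51 ± 0.093 (SE, n = 6 and 5, adjusted p = 0.00104, limma over 3229 tested rows). Of those rows 23.7% were called higher in the mutant, and in 15.7% the mutant arrays were all above the wild-type arrays, so a rise of this kind was common on these arrays. Without wild-type replicates 5 and 6 the log2 change of CHLM was 0.53 (adjusted p = 0.00153, limma), and without mutant replicates 1 and 2 it was 0.57 (adjusted p = 0.00311, limma). By size, the change of CHLM was at percentile 84.2 of all tested rows.

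For AT1G74470 the normalized log2 intensity in wild type lay between 1.29 and 1.80, with a median of 1.55. Mutant values were 1.38, 1.29, 1.501, 1.24 and 1.01 in replicates 1, 2, 3, 4 and 6. The log2 change was -0.27 ± 0.11 (SE, 95% confidence interval -0.52 to -0.015), with an unadjusted p of 0.0393 and an adjusted p = 0.0807 (limma), where 19.6% of rows were called lower and 13.2% had all mutant arrays below all wild-type arrays. Its change stood at percentile 27.7 of all rows, nearer to the middle of the distribution than that of CHLM. Without wild-type replicates 5 and 6 the log2 change was -0.34 and passed (adjusted p = 0.0294, limma). With the replicate number in the titles as a block, which the data and labels did not settle as a pairing, it was -0.28 and also passed (adjusted p = 0.0295, limma). It did not pass with consecutive arrays averaged in both groups (-0.31, adjusted p = 0.171, limma) or in wild type alone (-0.27, adjusted p = 0.181, limma). With consecutive arrays as a random block it was -0.29 (adjusted p = 0.132, limma), and without mutant replicates 1 and 2 it was -0.31 (adjusted p = 0.12, limma). Where consecutive arrays were joined in both groups, mutant replicate 4, whose values also carry number 5, was joined with replicate 3. The call turned on single arrays too: without wild-type replicate 6 the log2 change was -0.32 (adjusted p = 0.0395, limma), and without mutant replicate 3 it was also -0.32 (adjusted p = 0.0486, limma), while over all arrays left out in turn the adjusted p ran from 0.0395 to 0.186.

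**Figure D2:**
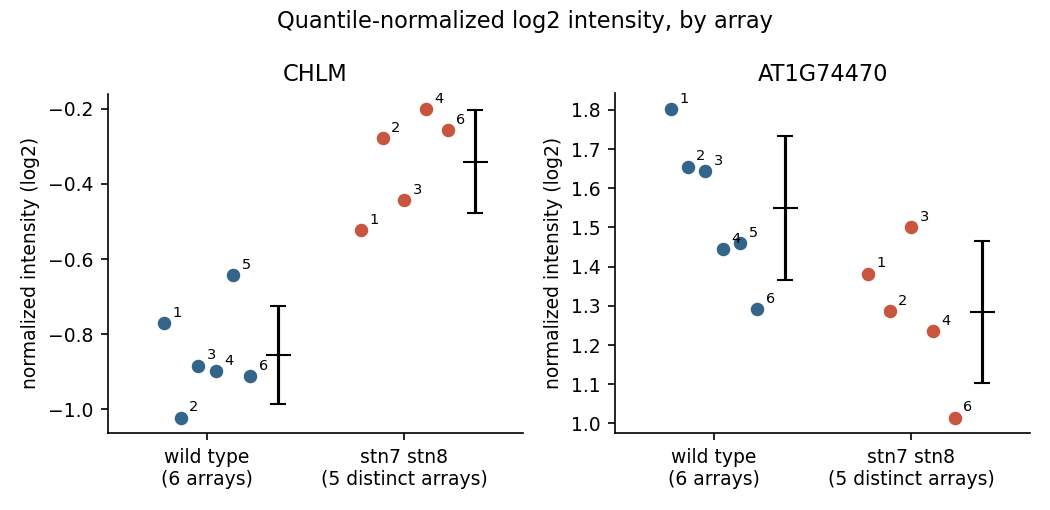
Quantile-normalized log2 intensity (vertical axis, not starting at 0) of CHLM (left) and AT1G74470 (right). Points are arrays with their replicate number, and bars are mean ± SD. CHLM goes from a mean of -0.86 in wild type to -0.34 in the mutant without overlap, and AT1G74470 from 1.55 to 1.28 with overlap.

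The position of a row within its own array does not change with any rescaling that keeps the order of the rows. CHLM lay at percentiles 57.4 to 68.5 of the measured rows in wild type. In the mutant the same row moved up to percentiles 71.5 to 78.6, a mean gain of 13.3 percentile points. AT1G74470 was among the brightest rows in every array, at percentiles 93.7 to 95.8 in wild type and 92.1 to 94.6 in the mutant. In rank order from the top, it stood between 138 and 207 in wild type and between 176 and 259 in the mutant.

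The scaling set the size of both changes but not their direction. On the deposited values CHLM was higher by 0.91 (log2) while the median of all tested rows was higher by 0.50, so that CHLM exceeded that shift by 0.40. There, 56.2% of rows were called higher. With each array centred on its median CHLM was at 0.37 (adjusted p = 0.0110, limma; 19.5% of rows called higher), and after cyclic loess at 0.48 (adjusted p = 0.00151, limma; 22.2%). AT1G74470 was at -0.27 on the deposited values (adjusted p = 0.0478, limma, with 8.7% of rows called lower), that is, its change was 0.78 below the median change of all rows on the log2 scale. With arrays centred on their medians it was at -0.81 (adjusted p = 1.83e-04, limma, 26.6% of rows called lower), and after cyclic loess at -0.23 (adjusted p = 0.139, limma, 20.2%). Rows of like brightness were also low with centred arrays. Their median change was -0.62 in the brightest decile, which holds AT1G74470, and 0.0017 in the decile that holds CHLM. The call of AT1G74470 as lower thus held under 2 of the 4 scalings, without regard to brightness, and that of CHLM as higher under all 4. The adjusted p of AT1G74470 ranged from 1.83e-04 to 0.186 over 29 alternatives, and that of CHLM from 1.92e-05 to 0.0154.

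Brightness moved with these shifts. Among the 323 rows of the seventh decile of brightness, which holds CHLM, the median log2 change was 0.54 on the deposited values and 0.077 after normalization. In the brightest decile, which holds AT1G74470, the medians were -0.084 and 0.014. CHLM lay above the upper quartile of its decile on both scales, at 0.79 and 0.34. AT1G74470 lay between the quartiles of its decile on both, from -0.46 to 0.31 as deposited and from -0.40 to 0.37 normalized. The part of the brightness trend in the deposited changes was not tested.

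**Figure D3:**
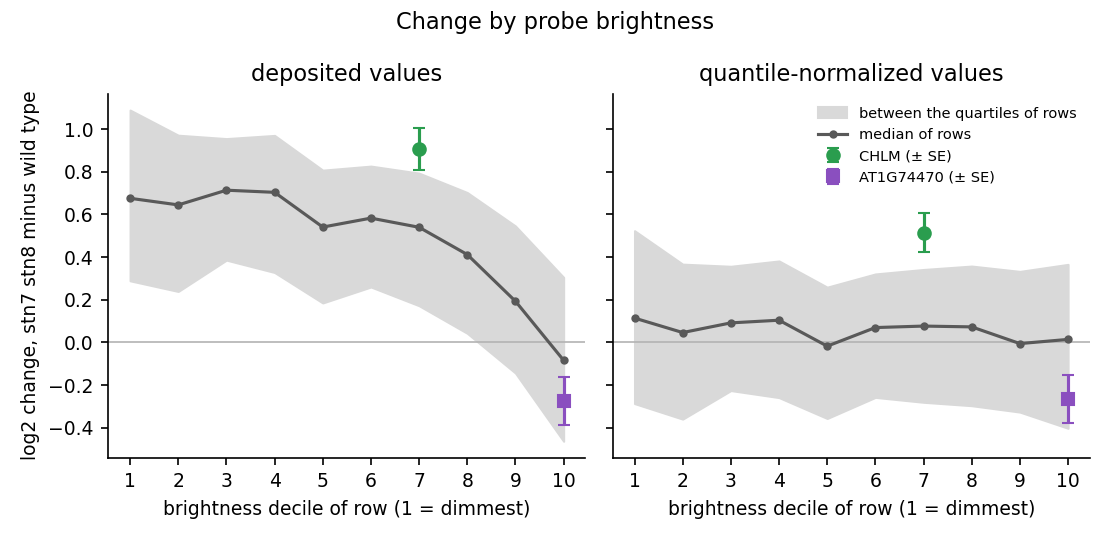
Log2 change from wild type to mutant (vertical axis) against the brightness decile of the row (horizontal axis, 1 is dimmest), for deposited values (left) and quantile-normalized values (right). The line is the median of the rows in a decile and the band runs between their quartiles; the points are CHLM and AT1G74470 ± SE. CHLM stands above the band in both panels, and AT1G74470 inside it.

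Because any factor that multiplies a whole array cancels in the difference of 2 rows, log2 CHLM minus log2 AT1G74470 was computed within each array from the deposited values. Signals of different probes cannot be compared as amounts of transcript, so only the shift of this difference between the groups is read. The difference ran from -2.94 to -2.44 in the 6 wild-type arrays, with a median of -2.60. In the mutant it was -1.71 in replicate 1, -1.41 in replicate 2, -1.75 in replicate 3, -1.27 in replicate 4 and -1.12 in replicate 6. All mutant arrays stood above all wild-type arrays, and the means were -2.63 ± 0.198 (SD, n = 6) and -1.45 ± 0.274 (n = 5).

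CHLM relative to AT1G74470 was thus higher in the mutant by 1.18 on the log2 scale, or 2.27-fold (exact two-sided permutation p = 0.00216, the smallest that the 462 splits of 11 arrays allow). A change that varies with brightness does not cancel in this difference. On the deposited values the median log2 change was 0.54 in the brightness decile of CHLM and -0.084 in that of AT1G74470. The share of that gap in the shift was not tested. On quantile-normalized values the shift was 0.78 and after cyclic loess 0.71, both with the same exact permutation p of 0.00216. Without wild-type replicates 5 and 6 the shift was 1.25 (exact permutation p = 0.00794). With consecutive arrays averaged in wild type, which resembled each other there (r of 0.970 to 0.980 across rows, against 0.920 to 0.969 for the other wild-type pairs), the shift was 1.18 with an exact permutation p of 0.0179, the smallest possible for 3 against 5.

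Within the mutant the 2 genes stood in opposite order over most arrays. Replicates 1 and 3 had the lowest CHLM and the highest AT1G74470, and replicates 4 and 6 had the 2 highest values of CHLM and the 2 lowest of AT1G74470. No such order was seen in wild type, where replicate 1 held the highest AT1G74470 and the second highest normalized CHLM. This order was noticed in the values and was not tested, and with 5 mutant arrays no correlation is given. Replicates 4 and 6 were the most alike of the mutant pairs across rows (r = 0.97), and the values of replicate 4 also carry number 5. Whether these arrays come from separate samples is not known, so the order may rest on fewer samples than arrays.

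**Figure D4:**
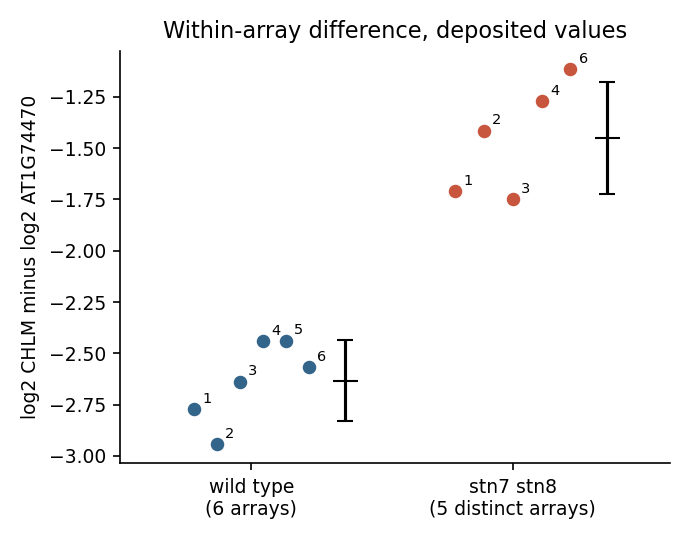
Difference between log2 CHLM and log2 AT1G74470 (vertical axis, deposited values, not starting at 0) in each array. Points are arrays with their replicate number, and bars are mean ± SD. The mutant arrays lie between -1.75 and -1.12, above the wild-type range of -2.94 to -2.44.

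Other genes of the tetrapyrrole pathway and of pathways that share its precursors or products were sparsely covered. The 10 lists of 133 genes, which include the pair, ran from tetrapyrrole synthesis to markers of non-green tissue, and 7 genes had a row of their own. All 7 were tested: 2 were higher in the mutant, 1 was lower and 4 did not pass, with a median log2 change of 0.26 against 0.058 for all rows. Over all tested rows 23.7% were called higher and 19.6% lower, and 3 of 7 is close to that background. In the list of chlorophyll synthesis itself, 3 of 28 genes were measured, of which 1 (CHLM) was higher, 0 were lower and 2 did not pass. Another 5 rows that carried several names, at least 1 of them from the lists, are not described. The 5 lists with 0 genes measured were the regulators of chlorophyll synthesis, chlorophyll breakdown, plastid isoprenoid precursors, supply of the methyl donor, and markers of non-green tissue, which leaves the tissue of origin unchecked.

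Upstream of CHLM, HEMA3 belongs to the family of glutamyl-tRNA reductases, which open the pathway to 5-aminolevulinic acid. Its normalized log2 intensity in the mutant was 0.63, 0.56, 0.31, 0.36 and 0.53 in replicates 1, 2, 3, 4 and 6. Wild type split into replicates 1 to 4, at 0.41 to 0.66, and replicates 5 and 6, at -0.64 to -0.58. The log2 change of 0.29 ± 0.26 did not pass (95% confidence interval -0.27 to 0.86, adjusted p = 0.388, limma), and it turned to -0.10 without wild-type replicates 5 and 6 and to -0.054 with arrays centred on their medians.

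SIRB, the sirohydrochlorin ferrochelatase, completes siroheme on a side branch of the same pathway. Its normalized log2 intensity was -2.65 to -2.27 in wild type (median -2.40) and -2.37, -2.25, -2.04, -2.57 and -2.47 in mutant replicates 1, 2, 3, 4 and 6. The groups overlapped, and the log2 change was 0.10 (95% confidence interval -0.15 to 0.36, adjusted p = 0.509, limma). On the deposited values, where the median row was higher by 0.50, SIRB passed as higher, at 0.72 (adjusted p = 3.38e-04, limma), and its adjusted p ran up to 0.861 over the alternatives.

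Z-ISO is the isomerase of 15-cis-zeta-carotene in carotenoid synthesis, a pathway that draws on the same geranylgeranyl diphosphate pool that feeds the chlorophyll tail. Its normalized log2 intensity was -2.27 to -1.93 in wild type (median -2.16) and -1.71, -1.65, -1.84, -1.07 and -1.05 in mutant replicates 1, 2, 3, 4 and 6. The mutant arrays lay above all wild-type arrays, as in 15.7% of all tested rows. Mutant replicates 4 and 6, which were also the highest for CHLM, were well above the other 3. These 2 arrays were the most alike of the mutant pairs across rows (r = 0.97) and may not be separate samples. Z-ISO rose by 0.66 ± 0.16 on the log2 scale, or 1.59-fold (SE, n = 6 and 5, adjusted p = 0.00533, limma), and was called higher under all 29 alternatives, at 1.26 on the deposited values. Of all tested rows 23.7% were called higher on the normalized values and 56.2% on the deposited values. The row was rather dim, at percentile 31.6 of brightness, and wild-type replicates 5 and 6 were both at -2.243.

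AT1G78620, listed with tocopherol and phylloquinone synthesis, was lower in the mutant by a call that few alternatives kept. Its normalized log2 intensity in the mutant was -1.69, -1.59, -1.89, -1.53 and -1.19 in replicates 1, 2, 3, 4 and 6. Wild-type replicates 1 to 4 were at -0.73 to 0.56 and replicates 5 and 6 at -1.56 to -1.48, the latter within the range of the mutant. The log2 change was -0.93 ± 0.34 (SE, adjusted p = 0.0424, limma), and it passed in 11 of 29 alternatives. It was -0.42 on the deposited values (adjusted p = 0.366, limma) and -1.32 without wild-type replicates 5 and 6 (adjusted p = 0.00177, limma). When arrays were left out in turn the log2 change ran from -1.10 to -0.68 (adjusted p 0.0147 to 0.0877, limma), and the call was lost without wild-type replicates 1, 2, 3 or 4 or mutant replicates 1, 2, 3 or 4.

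LHB1B2 encodes an LHCB1 antenna protein of photosystem II, which binds the finished chlorophyll, and transcripts of near-identical LHCB1 copies may bind the same probe. Its normalized log2 intensity was 2.86 to 3.19 in wild type (median 3.04) and 3.55, 3.65, 3.07, 3.10 and 3.10 in mutant replicates 1, 2, 3, 4 and 6. Mutant replicates 1 and 2 were above all wild-type arrays and the other 3 within their range. The log2 change of 0.26 ± 0.13 did not pass (95% confidence interval -0.017 to 0.54, adjusted p = 0.118, limma), and its call depended on the scaling. With arrays centred on their medians LHB1B2 was called lower, at -0.47 (adjusted p = 0.0268, limma), and the cyclic loess values gave a call in the other direction, 0.36 (adjusted p = 0.0327, limma).

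**Figure D5:**
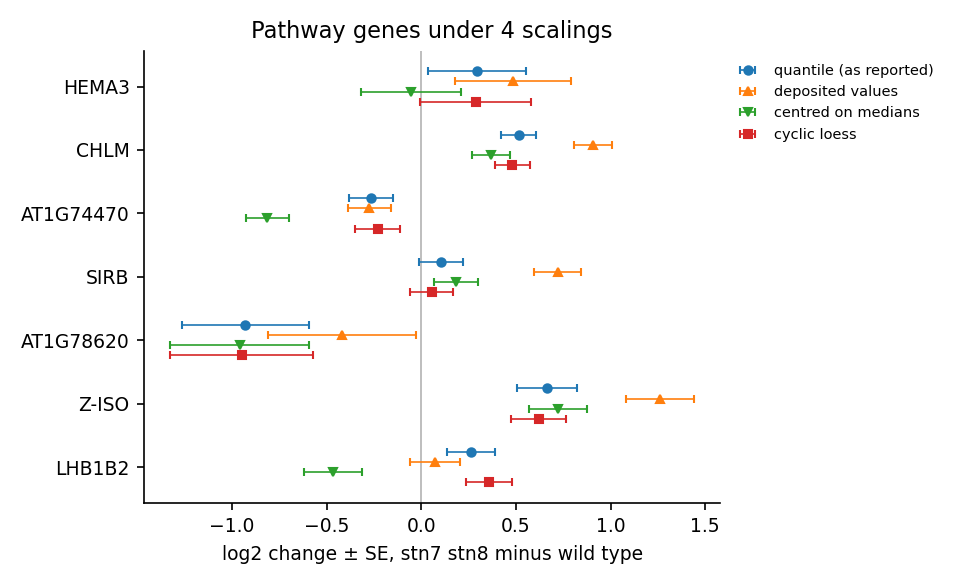
Log2 change from wild type to mutant ± SE (horizontal axis) of the 7 measured pathway genes under quantile normalization, the deposited values, arrays centred on their medians, and cyclic loess. CHLM and Z-ISO are above 0 and AT1G74470 and AT1G78620 below 0 under all 4, whereas LHB1B2 and HEMA3 change sign.

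Profiles most like those of the pair were sought among 626 other rows with 1 gene name and a value in all 11 arrays, by the root mean square difference of normalized log2 values after each row was set relative to its wild-type mean. Nearest to CHLM were AT5G17630 (0.114), AT2G32040 (0.124) and AT5G38310 (0.125), against a median of 0.406 over all rows. Nearest to AT1G74470 were AT5G65250 (0.106), AT4G35980 (0.136) and AT4G16490 (0.146), against a median of 0.449. These rows were chosen for likeness, so their log2 changes, from 0.41 to 0.48 for the first 3 and from -0.235 to -0.225 for the last 3, are a description. With arrays centred on their medians the first 3 were at 0.040, 0.25 and 0.083 and none passed (adjusted p = 0.792, 0.112 and 0.554, limma). The last 3 turned positive on the deposited values. AT1G74470 itself was at place 434 of 626 in likeness to CHLM, with a root mean square difference of 0.576.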

How the data were processed

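The deposited table holds 1 intensity per row and array on a linear scale; the sources used here do not say how the authors scaled these intensities or treated background. Gene names came from the platform annotation, matched by gene identifier to the TAIR10.1 table for 690 of 692 rows with 1 name. Entries at 0 (145 to 192 per array) were set to missing, the rest were transformed to log2 and quantile-normalized over the 11 distinct arrays, and rows with 4 values per group (3229 of 3439) were fitted with limma 3.58.1 in R 4.3.3 (lmFit and eBayes, two-sided, Benjamini-Hochberg adjustment over all tested rows, threshold 0.05). The number of arrays limits the precision. The within-array difference was tested by exact permutation over arrays. The fit was tested on simulated data whose noise was independent between arrays. That test therefore does not cover arrays that deviate together. Named were the pair, every gene of the pathway lists with a row of its own, and the 3 rows most like each member. Members, lists and alternatives were chosen with earlier results of these data known.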

Additional observations from a re-analysis of the deposited data

How the results depend on the processing

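CHLM was called higher under all 29 alternatives, from 0.32 with the median intensity added before log2 to 0.91 on the deposited values, and from 0.47 to 0.57 with arrays left out in turn. AT1G74470 was below 0 under all 29, with -0.32 to -0.20 when arrays were left out in turn. It was called lower under 9: at -0.81 with median-centred arrays, -0.27 on the deposited values, -0.36 with array weights, -0.27 with the identical arrays counted as 2 samples, -0.34 without wild-type replicates 5 and 6 together, under both replicate blocks below, and without wild-type replicate 6 or mutant replicate 3. Rows called higher numbered 766 and rows called lower 632. They became 1814 and 281 on the deposited values. There were 455 higher with consecutive arrays averaged in both groups and 507 at the threshold of 0.01. Left out in turn, arrays gave 686 to 756 higher and 590 to 631 lower. The shift of CHLM relative to AT1G74470 kept its direction under all 21 alternatives, at 1.098 to 1.26 with arrays left out in turn. It was 1.24 with consecutive arrays averaged in both groups, where 3 against 3 cannot give an exact permutation p below 0.1. There, and with consecutive arrays as a random block, the identical mutant arrays counted as number 4. They were thus joined with mutant replicate 3, and mutant replicate 6 stood alone. HEMA3 reversed to -0.054 with centred arrays and -0.10 without wild-type replicates 5 and 6, LHB1B2 reversed to -0.47 with centred arrays, and AT5G65250, AT4G35980 and AT4G16490 reversed to 0.28, 0.38 and 0.28 on the deposited values; the cause was not tested. With the replicate number as a block, and the identical mutant arrays as number 4, AT1G74470 was at -0.28 (adjusted p = 0.0295, limma) and CHLM at 0.56; the shift between them was 1.221 over 5 pairs, where sign changes cannot give an exact permutation p below 0.0625. The block with those arrays as number 5, chosen after seeing the data, gave -0.29 for AT1G74470 (adjusted p = 0.0223, limma) and 1.22 for the shift. Deviations of same-numbered arrays from their group means correlated at 0.00669 to 0.203 across rows with the arrays as number 4. As number 5 they correlated at 0.112 to 0.203, against -0.153 to 0.119 for the other pairs. There, all 5 mutant arrays correlated best with the wild-type array of their number, and the 5 wild-type arrays with a partner correlated best with that partner. This is a hint of shared blocks from the data and not from the design. Since the identical arrays carry both numbers in the titles, the pairing is not settled, and the fit without blocks was kept as the main one. Signal over background could not be assessed, as the table has no detection flags.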
